A study of Mus musculus with 8 samples.

Results

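The Mir290 to Mir295 cluster is a run of microRNA (miRNA) genes at the start of mouse chromosome 7, between positions 3218626 and 3220841 of GRCm38 (2216 bases). Its members were taken by gene symbol and by this position, which gave 9 annotated genes of the 55401 genes in the count tables. The cluster was chosen by a measured value, the lower count of Mir292 in cells labelled Zzz3 auxin than in those labelled Control, and for this reason every value of the cluster in that comparison is a description, with no p-value. Of the 9 genes, Mir290a, Mir291a, Mir292, Mir291b, Mir293, Mir294 and Mir295 had reads and passed the filter on low counts, and Mir290b and Mir292b had no read in any library.

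RNA sequencing was done on 8 libraries of mouse embryonic stem cells (ESCs): 2 labelled Control, 3 labelled Zzz3 auxin and 3 labelled Yeats2 auxin. ZZZ3 and YEATS2 are chromatin proteins of the ATAC histone acetyltransferase complex. In the auxin groups, ZZZ3 or YEATS2 carried an auxin-inducible degron (AID), and the cells expressed Tir1, a plant protein that directs AID-tagged proteins to degradation once auxin is added. Auxin was given at 500 µM for 24 h. Cells were grown with serum, LIF and 2i (inhibitors of GSK3 and MEK), with G418 to select for Tir1. For the Control libraries, no label names the cell line or says if auxin or solvent was added. Supplementary data of the study are described as DMSO against auxin in the same AID cells, while its methods call the reference wild type (WT). Here a single Control group stands against both lines, and nothing ties its libraries to either. A difference from Control can thus hold the line and the auxin as well as the lost protein, and with these labels they cannot be told apart. The sources used here do not say whether the libraries of a group came from separate cultures or clones, so p-values measure the spread between libraries, which may be technical. The libraries held 14315120 to 27884704 reads assigned to genes.

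The mouse miR-290 to miR-295 genes are read as one primary transcript by RNA polymerase II. Drosha with Dgcr8 cuts each hairpin out of this transcript in the nucleus, Dicer trims the hairpin in the cytoplasm to a short duplex, and one strand of it guides an Argonaute protein to target mRNAs. Target choice rests mainly on the seed, bases 2 to 8 of the mature miRNA. In mouse ESCs these miRNAs are among the most abundant, they are known for favouring the passage from G1 to S phase by repressing inhibitors of the cell cycle, and their promoter is bound by pluripotency factors such as Oct4, Sox2 and Nanog.

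The mature sequences are shown since the seed is what members of the cluster share, and what they would pass on to their targets. They were taken from RefSeq (GRCm38.p6), in which 17 mature miRNAs matched the members, and are written 5′ to 3′ with the seed in capitals. Among the 3p strands shown, 5 begin their seed with the letters AAGUGC, and 3 of these share the whole seed:
miR-291a-3p: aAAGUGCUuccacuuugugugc
miR-294-3p: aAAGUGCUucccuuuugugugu
miR-295-3p: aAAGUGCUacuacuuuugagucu
miR-291b-3p: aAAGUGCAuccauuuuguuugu
miR-290a-3p: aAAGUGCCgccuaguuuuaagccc
The seed of the 3p strand of Mir293 starts at a later letter of the same stretch:
miR-293-3p: aGUGCCGCagaguuuguagugu

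The strands of Mir290b and Mir292b, which had no read, are not shown. The 5p strands shown fall into 2 further groups. That of Mir292, the gene on which the comparisons below turn, has the same seed as those of Mir290a and Mir293:
miR-292a-5p: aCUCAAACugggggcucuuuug
miR-290a-5p: aCUCAAACuaugggggcacuuu
miR-293-5p: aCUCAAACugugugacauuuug
miR-294-5p: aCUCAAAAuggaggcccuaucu
miR-295-5p: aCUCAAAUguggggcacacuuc
The 5p strands of Mir291a and Mir291b, the other seed group, have one seed between them:
miR-291a-5p: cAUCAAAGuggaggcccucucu
miR-291b-5p: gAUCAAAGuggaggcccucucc
The other strand of Mir292 is miR-292a-3p. Its sequence was not among the 17 matched to the members. Its seed is thus not shown, and whether it falls in one of the groups above was not tested.

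These libraries did not measure the mature strands shown above. They were prepared from total RNA after removal of ribosomal RNA, and the authors discarded short reads, so a read over a gene of the cluster comes from a primary transcript or a precursor. The annotated genes are 58 to 84 bases long. In order along the plus strand, Mir290a lies at chr7:3218626-3218708, Mir291a at chr7:3218919-3219000, Mir292 at chr7:3219189-3219270, Mir291b at chr7:3219482-3219560, Mir293 at chr7:3220343-3220422, Mir294 at chr7:3220641-3220724 and Mir295 at chr7:3220773-3220841. Each is a gene of 1 exon. The genes with reads other than Mir290a, 6 in all, lie wholly inside exons of Nlrp12, which is annotated on the minus strand.

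Nlrp12, an innate immune receptor gene, overlaps the cluster, but its own level was low, with 85 reads over all 8 libraries. Counting had used the strand of the reads: without strand, reads in a gene that lies wholly inside an exon on the opposite strand would have been ambiguous and left out, and yet 180 of 436 such genes had reads, 84604 reads in all, the cluster included. The reads given here are thus those of the plus strand. Mir290b (chr7:3218638-3218695) and Mir292b (chr7:3219198-3219259) are annotated on the minus strand, opposite Mir290a and Mir292. A count of 0 for Mir290b allows a level of up to 0.201 counts per 1000000 reads (CPM), taking 3 reads as the floor in the smallest library. Mir292b shares its strand with an exon of Nlrp12, so its reads could not have been assigned, and its count of 0 gives no level.

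Levels are given as CPM, after TMM scaling (trimmed mean of M values), which removes differences in composition between libraries. Between genes they are compared per length, as CPM per kb of annotated gene. Over the 8 libraries, the mean level per length was 649 ± 124 CPM per kb for Mir291b (SD, n = 8) and 197 ± 86.0 CPM per kb for Mir292 (SD, n = 8). These genes stood first and second among 2202 annotated miRNA genes, of which 743 had any read. The levels of Mir291b, from 524 to 858 CPM per kb, did not overlap those of Mir292, from 111 to 356 CPM per kb. The other members followed at 74.7 ± 21.5 CPM per kb for Mir295, 64.0 ± 22.9 for Mir291a, 62.1 ± 10.1 for Mir290a, 54.4 ± 14.5 for Mir293 and 44.8 ± 10.9 for Mir294 (SD, n = 8 each). Neighbours among these last 5 differed by less than their spread between libraries. The order does not follow the position in the transcript: the 2 highest members start 563 and 856 bases into the cluster, after Mir290a and Mir291a, and the next highest, Mir295, lies at its far end. Reads that touched 2 members were left unassigned, which can lower the levels of members close together, such as Mir294 and Mir295. The part of this in the order was not tested.

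**Figure D1:**
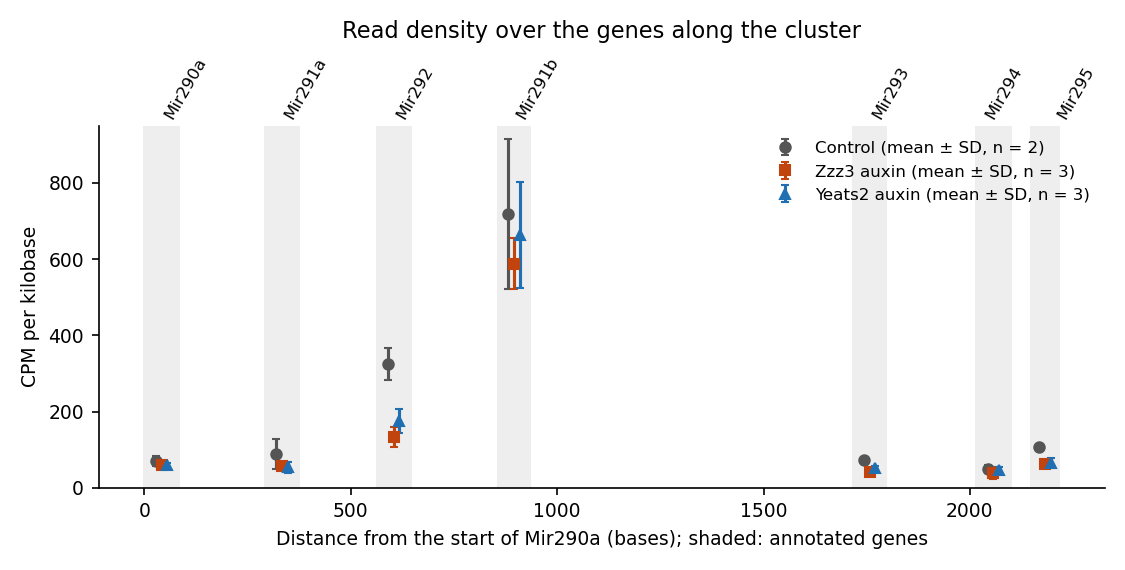
Level of each member with reads, in CPM per kb, against its position as the distance from the start of Mir290a in bases. Points are group means with SD bars (n = 2 Control, 3 Zzz3 auxin and 3 Yeats2 auxin), and grey bands are the annotated genes. Mir291b stood highest and Mir292 second in every group, and at Mir292 the mean of Control lay above those of both auxin groups.

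Summed over the members, the libraries held 1205 to 2927 reads of the cluster. The summed level was 99.4 and 128.7 CPM in Control, 70.2, 83.3 and 80.6 CPM in Zzz3 auxin and 85.4, 105.9 and 75.1 CPM in Yeats2 auxin. The Zzz3 auxin libraries were all below both Control libraries, while the Yeats2 auxin libraries overlapped them. The mean log2 level differed from Control by -0.54 in Zzz3 auxin and by -0.36 in Yeats2 auxin, and without Mir292 by -0.37 and -0.23. These differences depended on the Control libraries: they were -0.35 and -0.18 without Control replicate 2, and -0.73 and -0.55 without Control replicate 1. Of all reads on miRNA genes, the cluster took 37.8% and 44.5% in Control and 34.7% to 39.8% in the auxin libraries.

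The 5p strand of Mir292 has the same seed as those of Mir290a and Mir293, and the seed of the other strand of Mir292 is not given here. Mir292 was the member with the largest difference from Control in both auxin groups. Its level was 24.3 and 29.2 CPM in Control, 9.09, 13.3 and 10.4 CPM in Zzz3 auxin and 14.5, 16.8 and 11.8 CPM in Yeats2 auxin. All 6 auxin libraries were below both Control libraries, and the auxin groups overlapped each other. Behind these levels stood 156 to 643 reads per library, a counting error of 3.94% to 8.01%. The other members with fewer reads, down to 38 for Mir293, had counting errors of up to 16.2%. Counting errors and intervals cover counting only, as reads without molecular identifiers are not independent molecules.

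**Figure D2:**
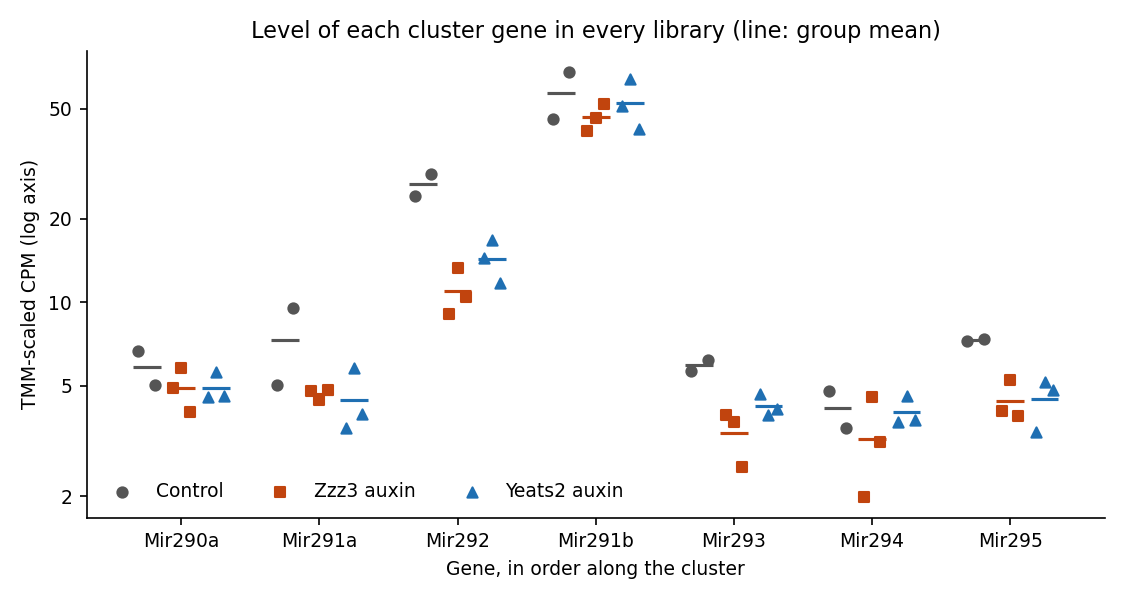
Level of the 7 members with reads in each library, in TMM-scaled CPM on a log axis, with genes in order along the cluster. Points are libraries (2 Control, 3 Zzz3 auxin and 3 Yeats2 auxin) and short lines are group means. For Mir292, Mir293 and Mir295 both Control libraries lie above all auxin libraries, and for Mir290a, Mir291b and Mir294 the groups overlap.

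In Zzz3 auxin against Control, the comparison that chose the cluster, all 7 members with reads had a log2 fold change (FC) below 0, as did 48.9% of all genes tested. Mir292 had a log2 FC of -1.28 (SE 0.20), that is 0.411 of the Control level. Mir293 followed at -0.79 (SE 0.22), Mir295 at -0.73 (SE 0.23) and Mir291a at -0.64 (SE 0.29). Mir294 was at -0.36 (SE 0.31), Mir291b at -0.29 (SE 0.20) and Mir290a at -0.24 (SE 0.23). In Mir291a, Mir292, Mir293 and Mir295, 4 of 7 members, the Zzz3 auxin libraries were all below both Control libraries, against 18.9% of all genes tested that were lower without overlap, and at the threshold used for calls 0.257% of all genes tested were called lower. The median of the 7 members was -0.64, beside 0.01 over all genes tested.

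The value of Mir291a in this comparison rested on the Control libraries, which stood at 5.03 and 9.57 CPM. It was -0.10 without Control replicate 2 and -1.04 without Control replicate 1. That of Mir291b, with Control libraries at 45.7 and 67.8 CPM, was 0.03 without Control replicate 2 and -0.55 without Control replicate 1. For Mir294 it was -0.72 when Zzz3 auxin replicate 2 was left out, -0.07 when Zzz3 auxin replicate 1 was, and -0.13 when Control replicate 1 was. Mir290a stood at -0.03 without Control replicate 1, and at -0.11 when Zzz3 auxin replicate 3 was left out. For Mir292, the log2 FC lay between -1.45 and -1.04 under all 14 alternatives to the fit and scaling.

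Yeats2 auxin against Control was tested, although it shares its Control libraries with the comparison that chose the cluster and is not independent of it. No member was called by edgeR at an adjusted p under 0.05, where 0.445% of all genes tested were called, and 0.114% of all genes tested were called lower. Before adjustment over all genes, p was under 0.05 for 4 of 7 members, each lower, beside 6.98% of all genes tested. DESeq2 called 1 member, Mir292, and it called more of all genes than edgeR did, 3.31%, with 1.18% called lower. All 7 members had a log2 FC below 0, beside 51.1% of all genes tested, and their median was -0.49, beside -0.01 over all genes tested. The Yeats2 auxin libraries of Mir292, Mir293 and Mir295 were all below both Control libraries, 3 of 7 members against 21% of all genes tested. The members share a primary transcript and the same Control libraries. Counts of members, here and in Zzz3 auxin against Control, are thus not independent draws to set against these percentages.

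Mir292 had a log2 FC of -0.90 (SE 0.20, 95% interval -1.33 to -0.46, edgeR adjusted p = 0.0860), or 0.538 of the Control level. This p passed the threshold under 4 of 14 alternatives: DESeq2 (adjusted p = 0.00463), no filter on low counts (9.52e-04), a correction for GC content and length (0.0430) and a fit of the compared groups alone (0.0267). Over all 14 it ran from 9.52e-04 to 0.493, while the log2 FC stayed between -1.02 and -0.75.

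Mir295, one of the genes whose 3p strand has the seed AAGUGCU, stood at 7.25 and 7.39 CPM in Control and at 3.40, 5.17 and 4.83 CPM in Yeats2 auxin. Both Control libraries lay above the 3 others. The log2 FC was -0.71 (SE 0.23, edgeR adjusted p = 0.191). In Zzz3 auxin its level was 4.07, 5.24 and 3.88 CPM, also below Control in every library.

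Mir293, whose 3p seed is offset from the others, had 5.67 and 6.21 CPM in Control, 3.91, 3.70 and 2.54 CPM in Zzz3 auxin and 4.68, 3.94 and 4.12 CPM in Yeats2 auxin. The groups did not overlap, with Control highest and Zzz3 auxin lowest, though the highest Zzz3 auxin library came close to the lowest Yeats2 auxin library. Its log2 FC in Yeats2 auxin against Control was -0.49 (SE 0.22, edgeR adjusted p = 0.340).

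Mir291a, which shares its 3p seed with Mir294 and Mir295, had 4.80, 4.43 and 4.82 CPM in Zzz3 auxin and 3.52, 5.83 and 3.96 CPM in Yeats2 auxin. One Yeats2 auxin library lay above the lower Control library. The log2 FC of Yeats2 auxin against Control was -0.72 (SE 0.29, edgeR adjusted p = 0.277), and it was -0.18 without Control replicate 2 and -1.11 without Control replicate 1.

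Mir291b, the most abundant member, had 41.4, 46.2 and 51.8 CPM in Zzz3 auxin and 51.0, 64.0 and 42.1 CPM in Yeats2 auxin. All 3 groups overlapped, since Control spread from 45.7 to 67.8 CPM. In Yeats2 auxin against Control the log2 FC was -0.12 (SE 0.20, 95% interval -0.55 to 0.32, edgeR adjusted p = 0.820).

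Mir290a, the first gene of the cluster, had 6.66 and 5.03 CPM in Control, 4.91, 5.83 and 4.02 CPM in Zzz3 auxin and 4.56, 5.61 and 4.59 CPM in Yeats2 auxin. Its groups overlapped, with a log2 FC of -0.25 in Yeats2 auxin against Control (SE 0.23, edgeR adjusted p = 0.647). Mir294 had 4.79 and 3.54 CPM in Control, 2.00, 4.54 and 3.15 CPM in Zzz3 auxin and 3.71, 4.60 and 3.76 CPM in Yeats2 auxin. Its groups overlapped too, and its log2 FC in Yeats2 auxin against Control was -0.05 (SE 0.31, edgeR adjusted p = 0.961).

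Yeats2 auxin against Zzz3 auxin compared the degron lines directly, both with auxin, and shares the Zzz3 auxin libraries with the comparison that chose the cluster. No member was called by edgeR or DESeq2, and none had an unadjusted p under 0.05, beside 6.25% of all genes tested. Over all genes tested edgeR called 0%, and DESeq2 called 3 genes. The smallest edgeR adjusted p among members was 0.779. Mir292 was higher in Yeats2 auxin by a log2 FC of 0.39 with a 95% interval of -0.02 to 0.79, which holds 0. For Mir293 the difference was 0.31 (95% interval -0.14 to 0.75), with all 3 Yeats2 auxin libraries above the Zzz3 auxin libraries, as were 5.25% of all genes tested. For Mir295 it was 0.02 (95% interval -0.44 to 0.48), for Mir291b 0.17 (-0.22 to 0.57), for Mir294 0.31 (-0.30 to 0.93), for Mir290a -0.01 (-0.45 to 0.44) and for Mir291a -0.07 (-0.65 to 0.50).

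The share of the cluster's reads that each gene takes does not depend on how libraries were scaled. Mir292 took 24.4% and 22.7% in Control, 13.0%, 16.0% and 12.9% in Zzz3 auxin, with 17.0%, 15.9% and 15.7% in Yeats2 auxin. The 95% Wilson intervals of the Control libraries, 22.6% to 26.4% and 21.2% to 24.2%, lay above those of all auxin libraries. The highest upper bound among the auxin libraries was 18.6%. Mir291b took 46.0% and 52.7% in Control, 59.0%, 55.5% and 64.2% in Zzz3 auxin, with 59.7%, 60.4% and 56.0% in Yeats2 auxin. Shares of the same total are tied, so those of Mir292 and Mir291b are not independent of each other. The log2 FC of Mir291b itself against Control was -0.29 in Zzz3 auxin and -0.12 in Yeats2 auxin. For every read of Mir291b there were 0.531 and 0.430 reads of Mir292 in Control, and 0.202 to 0.288 in the 6 auxin libraries.

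**Figure D3:**
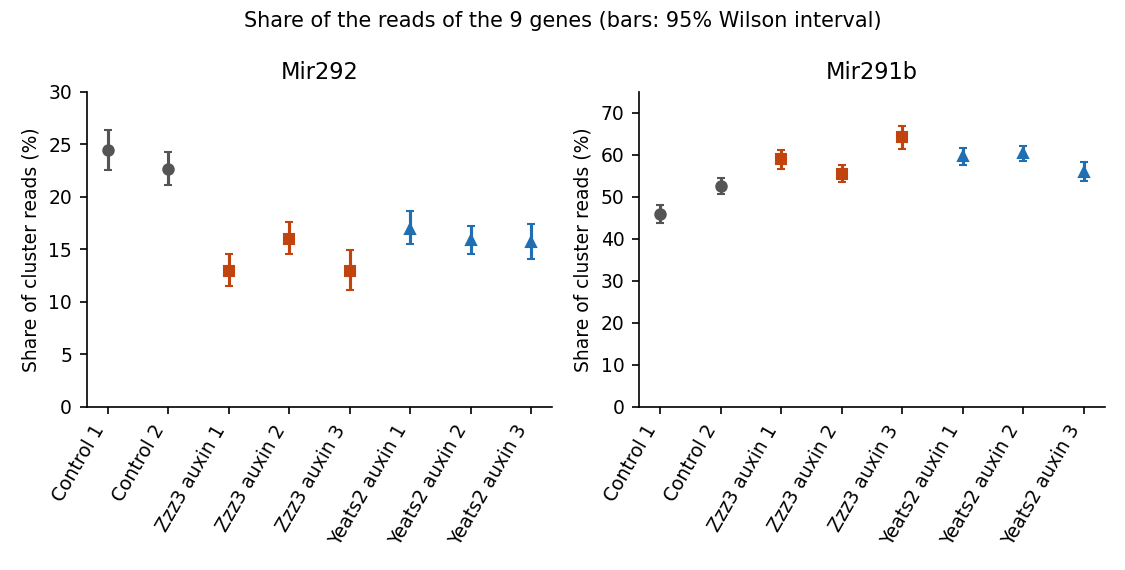
Share of the cluster's reads taken by Mir292 (left) and Mir291b (right) in each library, in percent with 95% Wilson intervals, which cover counting error only. In Control Mir292 took 22.7% and 24.4%, above all 6 auxin libraries, and the share of Mir291b was lower than in all of them. Shares of the same total are tied, so the right panel is not independent of the left.

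The mean share of Mir292 was 23.5% ± 1.25 in Control (SD, n = 2) and 16.2% ± 0.71 in Yeats2 auxin (SD, n = 3). The difference was -7.37 points. An exact permutation test, two-sided on the size of the difference, gave p = 0.1, the smallest that 2 libraries against 3 allow, and 0.7 after adjustment over 14 tests of shares. For Mir291b the difference was 9.39 points (exact permutation p = 0.1, adjusted 0.7). This is not independent of the result for Mir292, since shares of the same total are tied. The difference for Mir291b was larger in size than that for Mir292. The shares of Mir291a, Mir293 and Mir295 were also lower, by -1.29, -0.37 and -1.42 points. Those of Mir290a and Mir294 differed by 0.28 and 0.78 points (exact permutation p of 0.3 or more for each of these members). Between Yeats2 auxin and Zzz3 auxin, where 0.1 is again the smallest p, the share of Mir292 differed by 2.21 points (exact permutation p = 0.3, adjusted 0.8). Both comparisons share libraries with the one that chose the cluster, so these tests of shares are not independent of that choice.

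The other short RNA genes give the setting for these values. The other 2193 annotated miRNA genes, of which 99 passed the filter on low counts, lay at a median of -0.40 on the log2 scale in Zzz3 auxin against Control, with 70 of 99 below 0, and at -0.03 in Yeats2 auxin against Control. Their summed level was 160 to 163 CPM in Control, 123 to 132 CPM in Zzz3 auxin and 141 to 160 CPM in Yeats2 auxin. The snoRNA genes, which guide the modification of ribosomal RNA, had 139 genes tested, with medians of -0.51 and -0.33 and a summed level of 920 to 1051 CPM in Control, 433 to 744 CPM in Zzz3 auxin and 712 to 966 CPM in Yeats2 auxin. The part of this shift in the values of the cluster was not tested beyond the correction that follows.

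Of the other 99 miRNA genes, 9 had a log2 FC at or below that of Mir292 in Zzz3 auxin against Control, and 18 in Yeats2 auxin against Control. Among the 8 of them that averaged 2 CPM or more, none did in either comparison, and the lowest were Mir296 at -1.04 and Mir15a at -0.47. The 9 and 18 genes thus all averaged less than 2 CPM. Mir292 was picked for its fall, and both comparisons share their Control libraries. Its place below the 8 is thus a description only. These 8 include Snord43, annotated as miRNA but a snoRNA gene by its symbol, at a mean of 16.2 CPM. Mir292 also averaged 16.2 CPM, and the next highest of the 8 was Mir703 at 9.31 CPM. With counts corrected for GC content and length within the fit, the log2 FC of Mir292 was -1.04 in Zzz3 auxin and -0.78 in Yeats2 auxin against Control. The other members lay nearer to 0 in Zzz3 auxin, at -0.49 for Mir291a, -0.36 for Mir295, -0.30 for Mir293, -0.09 for Mir291b, 0.07 for Mir294 and 0.14 for Mir290a. In Yeats2 auxin the corrected values were -0.69 for Mir291a, -0.50 for Mir295, -0.17 for Mir293, -0.04 for Mir291b, -0.03 for Mir290a and 0.24 for Mir294.

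**Figure D4:**
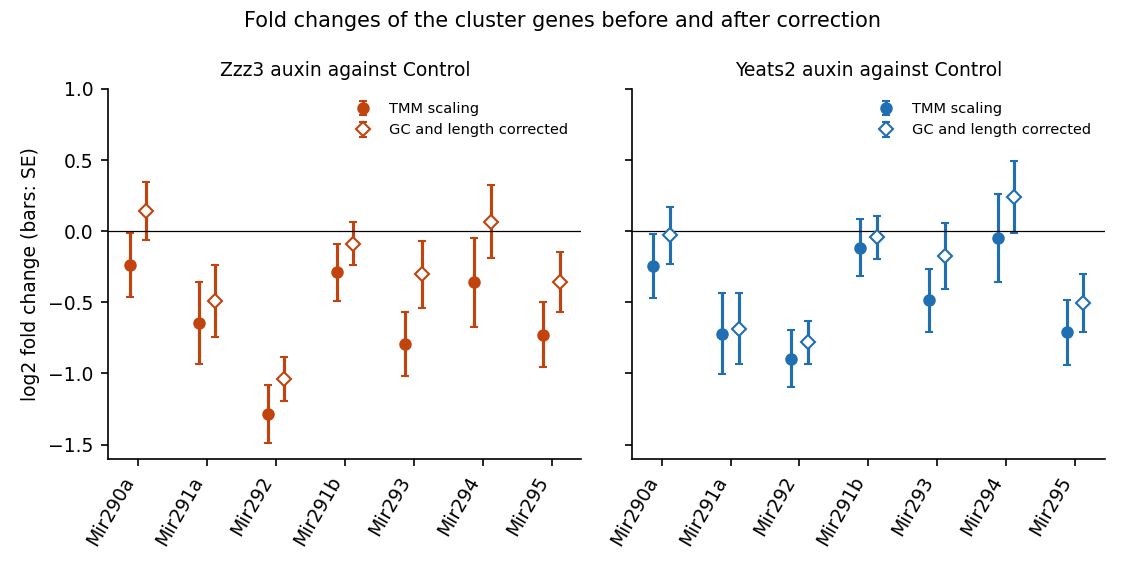
log2 FC of each member with reads in Zzz3 auxin (left) and Yeats2 auxin (right) against Control, with SE bars. Filled circles are from TMM scaling and open diamonds after the correction for GC content and length. Mir292 lies lowest in both panels before and after the correction, and in Zzz3 auxin every open diamond lies above its filled circle.

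**Figure D5:**
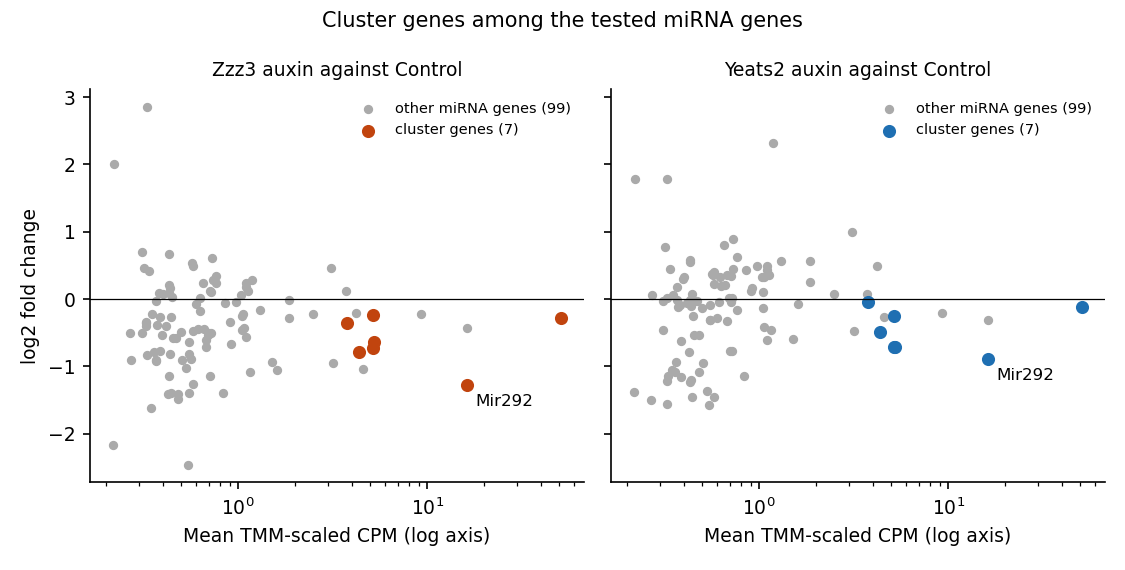
log2 FC against Control of each tested miRNA gene by its mean level over the 8 libraries, in TMM-scaled CPM on a log axis, for Zzz3 auxin (left) and Yeats2 auxin (right). Coloured points are the 7 members, with Mir292 named, and grey points the other 99 genes annotated as miRNA, Snord43 among them. Mir292 lies below the other miRNA genes of 2 CPM or more, while genes of lower level scatter widely in both directions. Mir292 was picked for its fall in Zzz3 auxin against Control, so its place is a description only.

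One other miRNA gene of the 99 was called by edgeR as lower in Zzz3 auxin against Control, beside 0.257% of all genes tested. This was Gm26398, at a mean of 0.541 CPM and a log2 FC of -2.46. DESeq2 gave an adjusted p for only 12 of the 99 in each comparison with Control. Of these 12 it called Mir296 and Mir15a lower in Zzz3 auxin against Control, where it called 8.5% of all genes. In Yeats2 auxin against Control, where it called 3.31% of all genes, it called Mir196a-1 higher. Mir296 and Mir15a are miRNA genes outside the cluster, on other transcripts.

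No gene within 100 kb of the cluster was called by edgeR or DESeq2 in any of the 3 comparisons, against 0.753% of all genes tested in Zzz3 auxin against Control and 0.445% in Yeats2 auxin against Control. Of 9 such genes 5 were tested, and 1 had an unadjusted p under 0.05 in each comparison with Control, beside 21.7% (Zzz3) and 14.6% (Yeats2) of all genes tested, and none between the auxin groups. In Yeats2 auxin against Control this was Gm3375 (log2 FC 0.69, edgeR adjusted p = 0.308). AU018091 had 132 ± 8.31 CPM in Control (SD, n = 2), 114 ± 12.9 in Zzz3 auxin and 101 ± 24.9 in Yeats2 auxin (SD, n = 3 each). Its log2 FC was -0.21 and -0.39 against Control (edgeR adjusted p = 0.538 and 0.361). Nlrp12, on the strand opposite the cluster, had 0.470 CPM in Control, 0.361 in Zzz3 auxin and 0.511 in Yeats2 auxin, with log2 FCs of -0.37 and 0.11. Myadm, a gene of myeloid differentiation, was at -0.29 and -0.44 (edgeR adjusted p = 0.499 and 0.399).

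Genes that process miRNAs or their precursors, or act with miRNAs as effectors, were listed, 23 in all, and all were tested. None was called by edgeR or DESeq2 in any comparison. Unadjusted p was under 0.05 for 5 of them in Zzz3 auxin against Control, 2 higher and 3 lower, for 2 in Yeats2 auxin against Control and for 1 between the auxin groups. Of all genes tested, 21.7%, 14.6% and 6.25% had such a p in these comparisons. Calls over all genes tested were 0.753%, 0.445% and 0% by edgeR. DESeq2 called 8.5% and 3.31% of all genes against Control, and 3 genes between the auxin groups. The median log2 FC of the 23 genes was -0.06 in both comparisons with Control. Drosha, the nuclease that releases the hairpins, had a log2 FC of 0.09 and 0.00 in Zzz3 and Yeats2 auxin, and its partner Dgcr8 of -0.33 and -0.24 (edgeR adjusted p = 0.118 and 0.324). Dicer1 was at -0.27 and -0.20, and Ago2, which carries the guide strand, at -0.01 in both. The largest were 0.50 for Dis3l2, which degrades uridylated precursors (edgeR adjusted p = 0.122), 0.46 for Srrt, which links capped RNA to Drosha, and -0.43 for the helicase Ddx5, all in Zzz3 auxin. In Yeats2 auxin, the largest was 0.54 for Ago4, an Argonaute gene at 1.33 CPM in Control (edgeR adjusted p = 0.438), followed by 0.36 for Srrt and 0.29 for Dis3l2. Drosha, Dgcr8, Dicer1 and Ago2 were named for their roles, after their values were seen.

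Reported targets of the miR-290 to miR-295 family, 14 genes, were all tested. No target was called by edgeR or DESeq2 in any comparison, beside the shares called over all genes given above. DESeq2 gave an adjusted p for 13 of the 14 targets in each comparison with Control. Unadjusted p was under 0.05 for 5 of them in Zzz3 auxin against Control, 2 higher and 3 lower, for 2 in Yeats2 auxin against Control and for 1 between the auxin groups, beside the same 21.7%, 14.6% and 6.25% of all genes tested. Their median log2 FC was -0.03 in Zzz3 auxin and 0.07 in Yeats2 auxin. Rbl2, a pocket protein that represses genes of the cell cycle, had 17.3 and 22.4 CPM in Control, 25.1 to 31.2 CPM in Zzz3 auxin and 25.2 to 33.1 CPM in Yeats2 auxin. Its log2 FCs were 0.54 and 0.53 (edgeR adjusted p = 0.119 and 0.202). Tgfbr2, a receptor for TGF-β, was at 0.79 in Zzz3 auxin and -0.10 in Yeats2 auxin (edgeR adjusted p = 0.145 and 0.894). Irf2, an interferon regulatory factor, was at 0.48 in Zzz3 auxin, and in Yeats2 auxin the Wnt inhibitor Dkk1 was at 0.50 and the caspase gene Casp2 at -0.40 (edgeR adjusted p = 0.423 and 0.231). The cell cycle inhibitor Cdkn1a was at -0.01 and 0.16, with a level of 33.3 to 82.7 CPM in Zzz3 auxin, and Lats2, a kinase of the Hippo pathway, at -0.10 and 0.08. These 2 genes were named for their roles, after their values were seen.

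Of 8 factors reported to bind the promoter of the cluster, none was called by edgeR in any comparison, beside 0.753%, 0.445% and 0% of all genes tested. Unadjusted p was under 0.05 for 2 in Zzz3 auxin against Control, both higher, for 2 in Yeats2 auxin against Control, 1 in each direction, and for none between the auxin groups, again beside 21.7%, 14.6% and 6.25% of all genes tested. Pou5f1, which encodes Oct4, had 275 and 420 CPM in Control, 463 to 584 CPM in Zzz3 auxin and 460 to 592 CPM in Yeats2 auxin. Its log2 FC was 0.62 in Zzz3 auxin and 0.55 in Yeats2 auxin (edgeR adjusted p = 0.106 and 0.213). DESeq2, which called 8.5% of all genes in Zzz3 auxin against Control, called Pou5f1 higher there and no other of the 8 in any comparison. Tcf7l1, a repressor of Wnt target genes, was at 0.82 and 0.43 (edgeR adjusted p = 0.155 and 0.536), and Mycn at 0.28 in Zzz3 auxin. Nanog was at -0.22 and -0.28 (edgeR adjusted p = 0.319 and 0.325).

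ESC markers were high in every library, with 4233 to 4977 CPM summed over 8 genes. Markers of differentiated cells summed to 14.4 to 26.4 CPM and those of feeder fibroblasts to 1.23 to 2.07 CPM, with overlapping groups. In bulk RNA, fewer cells of a type and less RNA per cell cannot be told apart. The mRNA of Zzz3 was at 184 ± 3.23 CPM in Control (SD, n = 2), 95.5 ± 17.3 in Zzz3 auxin and 188 ± 3.89 in Yeats2 auxin (SD, n = 3 each), and that of Yeats2 at 93.4 ± 3.51, 125 ± 7.16 and 74.8 ± 29.9. The degron acts on the protein, so these levels do not measure depletion.

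The genes whose profile over the 8 libraries was most like that of the summed cluster were found by the root mean square difference of log2 CPM, centred per gene after a prior count of 2, among 12059 genes that averaged 2 CPM or more. They were Gm21028 at 0.0744, the ribosomal protein gene Rps10 at 0.0827, Atp5j2 at 0.0966, which encodes a subunit of ATP synthase, Cdc26 at 0.0996, which encodes a subunit of the anaphase-promoting complex, and Gm38178 at 0.0997. The median over all these genes was 0.334, and a flat profile stood at 0.269. Rps10 had 20.4 CPM in Control, 13.5 in Zzz3 auxin and 14.4 in Yeats2 auxin. Ribosomal protein genes have near-identical pseudogene copies, so the reads of Rps10 are uncertain.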

How the data were processed

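The authors trimmed reads with cutadapt, dropped short reads and those of ribosomal RNA, mapped what was left to mm10 by STAR 2.5.3a and counted reads per gene with HTSeq 0.6.1p1 in union mode on Ensembl annotation, leaving ambiguous reads unassigned. The molecule is poly(A) RNA in the labels, but ribosomal RNA was depleted according to the protocol. The deposited values are raw counts without normalization, 1 table per library. The 5 tallies of unassigned reads were not used. Of 55401 genes, 55141 matched GENCODE annotation of GRCm38, the assembly of mm10.

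Tests were run with edgeR 4.0.16 in R 4.3.3 (filterByExpr, 17532 genes kept, TMM, robust quasi-likelihood test, 1 mean per group over all 8 libraries), and p-values were adjusted by Benjamini and Hochberg over all genes tested. Calls were made at an adjusted p under 0.05. The SE was taken from each log2 FC and its F statistic. Alternatives were DESeq2 1.42.0, its size factors, no filter, a correction for GC content and length, the compared groups alone, a replicate block and leaving out each library. Scripts were tested on simulated data. Summaries used Python 3.11.15 with pandas 2.3.3 and scipy 1.17.1.

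The members and gene lists were chosen with earlier results of these data known. Named were every member, genes called in a list (at most 8), otherwise the largest by absolute log2 FC, up to 3, and the 5 genes most like the summed cluster. The values of 1 neighbouring gene are not reported here.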

Additional observations from a re-analysis of the deposited data

How the results depend on the processing

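In Yeats2 auxin against Control the number of members called rose from 0 to 1 with DESeq2, without a filter, with the GC content and length correction and with the compared groups alone, each time Mir292, and the cause was not tested. The alternatives without a filter and with the compared groups alone also called more genes over the whole table, 553 and 454 in place of 78, as did DESeq2 with 434 and the correction with 132. Leaving out 1 library called no member but moved the calls over all genes, from 0 without Control replicate 1 or Yeats2 auxin replicate 3 to 217 without Zzz3 auxin replicate 3. In Yeats2 auxin against Zzz3 auxin no alternative called a member. In Zzz3 auxin against Control the direction of 3 members changed: with the GC content and length correction Mir290a went from -0.24 to 0.14 and Mir294 from -0.36 to 0.07, and without Control replicate 2 Mir291b went from -0.29 to 0.03. With the GC content and length correction Mir294 in Yeats2 auxin against Control was at 0.24, and Mir295 in Yeats2 auxin against Zzz3 auxin at -0.15. Leaving out 1 library gave -0.37 to 0.20 for Mir291b and -0.25 to 0.19 for Mir294 in Yeats2 auxin against Control, and -0.12 to 0.13 for Mir290a, -0.32 to 0.066 for Mir291a and -0.10 to 0.18 for Mir295 in Yeats2 auxin against Zzz3 auxin. Mir290a there was at 0.0022 without a filter.

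Deviations from the group means correlated at -0.34 to 0.31 between same-numbered libraries (7 pairs), and at -0.37 to 0.37 between differently numbered ones. With 2 Control libraries, their deviations mirror each other, so this check can neither show nor exclude a pairing by replicate number. With a replicate block no member was called, Mir292 in Yeats2 auxin against Control was at -0.82 (edgeR adjusted p = 0.101), and Mir290a in Yeats2 auxin against Zzz3 auxin was at 0.0054. Over all genes the block called 32 in place of 78 in Yeats2 auxin against Control and 42 in place of 132 in Zzz3 auxin against Control. With 2 Control libraries, and 38 to 211 reads per library for members other than Mir292 and Mir291b, small differences are not detectable at this depth.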
